A study of Equus caballus with 3 samples.

Results

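The genes described here were 5 matrix metalloproteinases (MMPs), *MMP1*, *MMP2*, *MMP3*, *MMP13* and *MMP14*, and 3 tissue inhibitors of metalloproteinases (TIMPs), *TIMP1*, *TIMP2* and *TIMP3*. They were chosen by name, with earlier results of these data known. They are the collagenases, the stromelysin, the gelatinase and the membrane-type protease that mesenchymal stromal cells (MSCs) are known to make, with their main inhibitors. All 8 were found in each of the 3 count matrices, which held 29927 genes in all and 26 genes named MMP or TIMP. In the deposited annotation *MMP1*, *MMP3* and *MMP13* lay on the minus strand of chromosome 7, *MMP2* on chromosome 3, *MMP14* on chromosome 1, *TIMP1* on chromosome X, *TIMP2* on chromosome 11 and *TIMP3* on chromosome 28, the last 5 on the plus strand.

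MMPs are zinc endopeptidases that cut the proteins of the extracellular matrix. *MMP1* and *MMP13* encode collagenases that cleave fibrillar collagen, *MMP3* encodes a stromelysin that also activates other MMPs, *MMP2* encodes a gelatinase that is secreted as a proenzyme, and *MMP14* encodes a membrane-anchored protease that activates that proenzyme at the cell surface. TIMPs bind active MMPs and block them, *TIMP2* additionally takes part in the activation of the *MMP2* product by the *MMP14* product, and *TIMP3* encodes an inhibitor that stays bound to the matrix and acts on several ADAM and ADAMTS proteases as well.

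The cells were cultured equine MSCs of 1 healthy female warmblood horse, 10 years old, which gave the fat (AT), marrow (BM) and blood (PB) cultures alike. AT stands for adipose tissue, BM for bone marrow and PB for peripheral blood. Each source was profiled in 1 droplet library of 3′ ends, so that a difference between sources was also a difference between single libraries and had no replicate check. Source was taken from the sample titles, because another label named all 3 samples as mononuclear cells of the blood. Intervals below are 95% limits and cover counting error only. They are exact (Poisson for levels, Clopper-Pearson for shares of cells), except for folds between ratios of UMIs, whose limits are approximate on the log scale. UMIs of 1 cell are not independent of each other, which makes the limits on levels too narrow.

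A barcode counted as a cell if it held 2500 to 15000 unique molecular identifiers (UMIs), of which no more than 3% were mitochondrial. This left 5403 AT, 5580 BM and 5318 PB cells with 39980656, 40239295 and 41622445 UMIs and medians of 7291, 6874.5 and 7750 UMIs per cell. The MSC markers *CD44*, *THY1*, *ITGB1*, *ENG* and *B2M* were counted at 62.2 to 1781 CPM (UMIs of a gene scaled to a common library total, as in the usual CPM) in every source, *NT5E* at no more than 1.03 CPM, and *PTPRC*, which marks leukocytes, at 0 UMIs in all 3 libraries. Between 37 and 42 kept barcodes were shared by each pair of libraries. The AT matrix also held 6155 barcodes under the UMI limit, 5711 of which were in the PB matrix, and these entered only the alternative that took all barcodes with at least 500 UMIs and the account of low barcodes in the closing section. Over the 11479 genes with a mean of at least 1 CPM, the median log2 ratio was 0.24 for BM over AT, 0.04 for PB over AT and 0.20 for BM over PB, and the members' differences are to be read against these shifts.

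*MMP2*, *TIMP1* and *TIMP2* were abundant in all 3 sources, *MMP14* and *TIMP3* were much higher in BM than in AT, and the collagenase and stromelysin genes were counted in few cells. Levels were CPM summed over the kept cells, and log2 ratios were taken after adding 1 CPM. Between BM and AT, 4 of the 8 genes (*MMP1*, *MMP13*, *MMP14* and *TIMP3*) differed by more than 1 on the log2 scale, where 11.0% of the 11479 genes did. Between PB and AT, 3 of 8 did (*MMP1*, *MMP3* and *TIMP3*), against 10.4% of all genes, and between BM and PB, 4 of 8 did (*MMP13*, *MMP14*, *TIMP1* and *TIMP2*), against 8.27%. *MMP1* and *MMP3* did not reach the mean of 1 CPM that these shares of all genes required, and *MMP13* reached it only through BM. Without these 3 genes, 2, 1 and 3 of the 5 remaining members differed by that much in the 3 comparisons. Because the members were chosen with earlier results known, their counts beside the shares of all genes are descriptions only. The counts of 4, 3 and 4 were the same without the barcodes kept in more than 1 library. They were 4, 2 and 3 with thinned cells and with the mean of single-cell CPM, 5, 3 and 3 in G1 cells, 3, 3 and 4 with no upper UMI limit, and 4, 2 and 4 without the 3 highest cells of each gene.

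**Figure D1:**
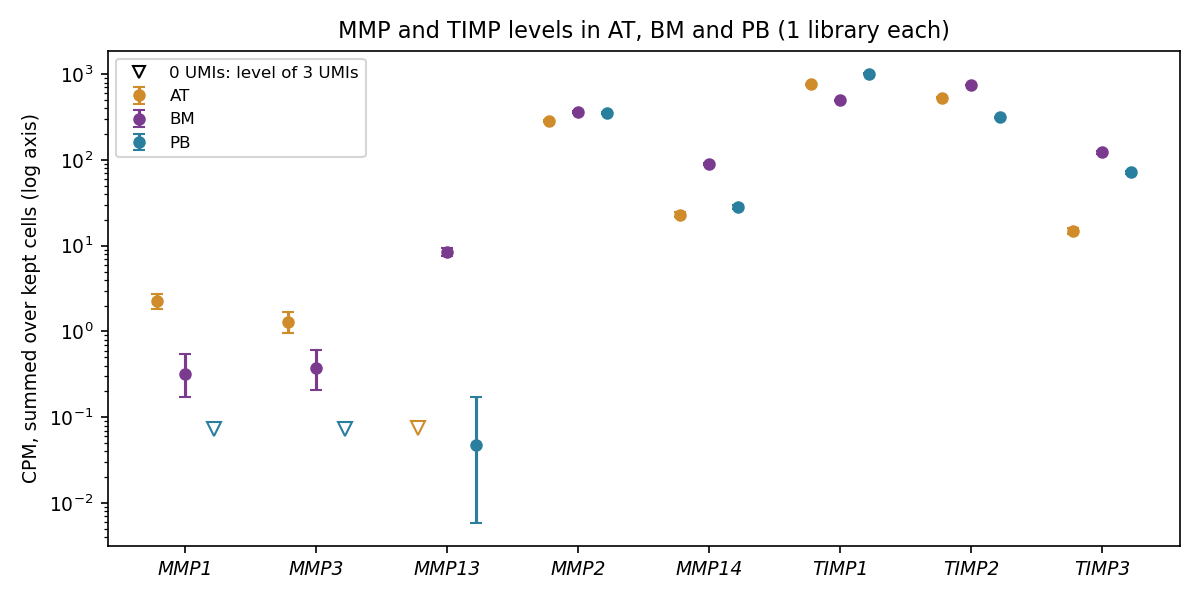
Summed CPM of the 8 genes (log axis) in AT, BM and PB, 1 library each. Bars are exact Poisson 95% intervals, many of which are smaller than the points, and open triangles stand for 0 UMIs, drawn at the level of 3 UMIs in that library. *MMP2*, *TIMP1* and *TIMP2* lie between 285 and 1016 CPM in every source, whereas *MMP1*, *MMP3* and *MMP13* lie below 10 CPM.

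Of the collagenases, *MMP1* had its highest summed level in AT and *MMP13* in BM, both from few cells. *MMP1* was counted at 90 UMIs (2.25 CPM, 1.81 to 2.77) in AT, 13 UMIs (0.323 CPM, 0.172 to 0.552) in BM and 0 UMIs in PB. AT was thus 6.97-fold (3.88 to 13.6) above BM. By the exact lower limit it was at least 24.9-fold above PB, or 31.2-fold with PB set at 3 UMIs. The *MMP1* UMIs in AT came from 63 cells, 50 of which held a single UMI. In PB, 0 of 5318 cells held one, where the exact upper limit is 0.0693% and 3 cells would be 0.0564%. This limits the share of cells with a UMI, not the share of cells that express the gene. The log2 ratio of BM over AT was -1.30, but -0.95 with no upper UMI limit and -1.68 with thinned cells.

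*MMP3* had a similar order of sums, but a handful of cells decided it. It was counted at 51 UMIs (1.28 CPM, 0.9498 to 1.68) in AT, 15 UMIs (0.373 CPM, 0.209 to 0.615) in BM and 0 in PB. AT was 3.42-fold (1.89 to 6.55) above BM. By the exact lower limit AT was at least 13.9-fold above PB, or 17.7-fold with PB set at 3 UMIs. One AT cell held 29 of these UMIs and another 10, and without the 3 cells of each source with the most *MMP3* UMIs, AT kept 10 UMIs (0.2503 CPM) and BM 9 (0.224 CPM). As many BM cells (12) as AT cells (13) held an *MMP3* UMI within counting error, 0.215% (0.111 to 0.375) and 0.241% (0.128 to 0.411). Removal of the 3 highest cells was chosen after these counts had been seen.

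*MMP13* was counted at 338 UMIs (8.40 CPM, 7.53 to 9.34) in BM, at 0 UMIs in AT and at 2 UMIs, both in 1 cell, in PB. By the exact lower limit BM was at least 90.5-fold above AT, or 112-fold with AT set at 3 UMIs. It was 175-fold (48.0 to 1449) above PB. The BM UMIs came from 40 of 5580 cells, 0.717% (0.513 to 0.975), and were strongly uneven among them: 14 of the 40 cells held 1 UMI, 16 held 5 or more, and the 3 highest held 82, 49 and 28, which was 47.0% of the total. Without those 3 cells BM still had 179 UMIs (4.45 CPM). The *MMP13* cells did not have high total counts (median 5659 UMIs, against 6878.5 in the other BM cells), and their median Scrublet doublet score was 0.0565 against 0.0809.

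*MMP13* was counted in other BM cells than *MMP1* and *MMP3*. No BM cell held UMIs of both *MMP1* and *MMP13* or of both *MMP3* and *MMP13*, although with 12, 12 and 40 positive cells the product of the shares gives fewer than 1 such cell (0.0860 for each pair), so that the absence could not be read at this depth. *MMP1* and *MMP3* were found together in 3 AT cells, where the product gives 0.152, and in 1 BM cell. The 40 *MMP13* cells, a set chosen by that gene, also had higher levels of several genes of bone-forming cells: *SPP1*, which encodes osteopontin, at 480 CPM against 13.8 in the other BM cells, *IFITM5*, an osteoblast gene, at 199 against 12.3, and *IBSP*, which encodes bone sialoprotein, at 149 against 31.6. *SP7*, an osteoblast transcription factor, was at 70.4 CPM in them (17 UMIs) against 23.4. *ALPL*, the tissue-nonspecific alkaline phosphatase, was at 170 against 95.5, but *RUNX2*, another osteoblast factor, had 1 UMI (4.14 CPM against 4.15). *SPP1* and *IBSP* UMIs were found in 27.5% and 25% of the 40 cells. Of the 40 cells 90% were called G1, against 67.5% of all BM cells, and the part of this in the levels was not tested. Of 4 cartilage markers, *COL2A1* and *COL9A1* were at 0 UMIs in all 3 libraries, and in the 40 cells *ACAN* had 0 UMIs and *SOX9* had 2 (8.28 CPM against 12.8 in the other BM cells). *MMP2*, *MMP14*, *TIMP1*, *TIMP2* and *TIMP3* had log2 ratios of 0.30 to 0.98 between these cells and the other BM cells.

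*MMP2* was the dominant protease and the member that varied least between sources. It was counted at 285 CPM (280 to 291) in AT, 362 (356 to 367) in BM and 353 (347 to 359) in PB. BM was 1.27-fold (1.24 to 1.30) above AT and 1.02-fold above PB. With TMM factors in place of total UMIs the log2 ratio of BM over AT fell from 0.34 to 0.06. That of BM over PB turned from 0.03 to -0.20. A UMI of *MMP2* was present in 81.0% of AT cells, 82.9% of BM cells and 87.5% of PB cells, or in 49.0%, 55.0% and 55.8% once each cell was thinned to 2500 UMIs.

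*MMP14* was highest in BM. Its level was 22.9 CPM (21.5 to 24.4) in AT, 89.2 (86.3 to 92.2) in BM and 28.1 (26.5 to 29.8) in PB, that is 3.90-fold (3.62 to 4.19) higher in BM than in AT and 3.17-fold (2.97 to 3.39) higher in BM than in PB. PB exceeded AT by only 1.23-fold (1.12 to 1.34). The share of cells with an *MMP14* UMI was 15.01% (14.1 to 16.0) in AT, 43.2% (41.9 to 44.5) in BM and 18.5% (17.4 to 19.5) in PB, and 5.50%, 20.3% and 6.66% after thinning. The log2 ratio of BM over AT stayed between 1.25 and 2.15 in every alternative tried. Because *MMP2* hardly differed, the ratio of *MMP14* to *MMP2* UMIs was 0.0803 in AT, 0.0796 in PB and 0.247 in BM.

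The inhibitors had a different order for each gene. *TIMP1* was counted at 761 CPM (753 to 770) in AT, 499 (492 to 506) in BM and 1016 (1007 to 1026) in PB, 2.04-fold (2.00 to 2.07) higher in PB than in BM, although the log2 ratio of -1.03 became -0.83 in G1 cells. *TIMP2* had the reverse order, with 532 CPM (525 to 540) in AT, 750 (741 to 758) in BM and 314 (308 to 319) in PB, and was 2.39-fold (2.34 to 2.44) higher in BM than in PB. AT lay between the other sources for both genes, but its distance from BM depended on the setting. For *TIMP1* the log2 ratio of BM over AT was -0.61, but -0.20 in G1 cells and -0.89 with TMM factors. For *TIMP2* it was 0.49, but 0.60 in G1 cells and 0.21 with TMM factors. *TIMP1* UMIs were present in 90.5%, 88.9% and 95.1% of AT, BM and PB cells and *TIMP2* UMIs in 94.4%, 97.3% and 86.6%, or in 69.4%, 63.0% and 80.3% and in 71.8%, 81.8% and 53.3% of thinned cells.

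*TIMP3* was the inhibitor that differed most. It was counted at 14.98 CPM (13.8 to 16.2) in AT, 122 (119 to 126) in BM and 72.1 (69.5 to 74.7) in PB, so that BM was 8.16-fold (7.497 to 8.90) and PB 4.81-fold (4.40 to 5.26) above AT. BM exceeded PB by 1.70-fold (1.62 to 1.78). Of the cells, 8.48% in AT, 38.3% in BM and 27.2% in PB held a *TIMP3* UMI (3.61%, 20.3% and 12.5% after thinning). The 4 osteoblast markers in the matrices (*RUNX2*, *SP7*, *ALPL*, *IBSP*) summed to 3.90 CPM in AT, 156 in BM and 369 in PB. Most of each sum was *ALPL*, at 2.88, 96.0 and 326 CPM. *IBSP* had another order, with 0 UMIs in AT, 32.3 CPM in BM and 0.673 in PB. The part of these markers in the *TIMP3* difference was not tested. *TIMP4* had 25 UMIs in BM, 3 in PB and 0 in AT.

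The balance of proteases to inhibitors was then compared as the ratio of UMIs, which describes mRNA and not enzyme activity. UMIs of 3′ ends do not scale with transcript length, but capture differs from gene to gene, so the ratios serve to compare sources rather than to count proteases per inhibitor. In AT the 5 MMPs summed to 12470 UMIs and the 3 TIMPs to 52325, in BM the sums were 18506 and 55156, and in PB 15869 and 58359. The ratio was 0.238 (0.234 to 0.243) in AT, 0.336 (0.330 to 0.341) in BM and 0.272 (0.267 to 0.277) in PB, and BM was 1.41-fold (1.37 to 1.44) above AT. Inhibitor UMIs thus outnumbered protease UMIs 4.196-fold in AT, 2.98-fold in BM and 3.68-fold in PB.

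The order of the sources in this balance depended on *TIMP1*. Without *TIMP1* the ratio was 0.570 in AT, 0.527 in BM and 0.989 in PB, so that PB was highest and BM lowest. Without *MMP2* it was 0.0202 in AT, 0.0717 in BM and 0.0201 in PB, and BM remained highest. In single cells, the median share of MMP UMIs among MMP and TIMP UMIs was 18.8% in AT, 23.1% in BM and 22.2% in PB, and MMP UMIs exceeded TIMP UMIs in 4.42%, 5.72% and 5.87% of cells. After thinning the medians were 13.3%, 20% and 20%, and the shares of cells 8.50%, 10.2% and 10.8%.

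**Figure D2:**
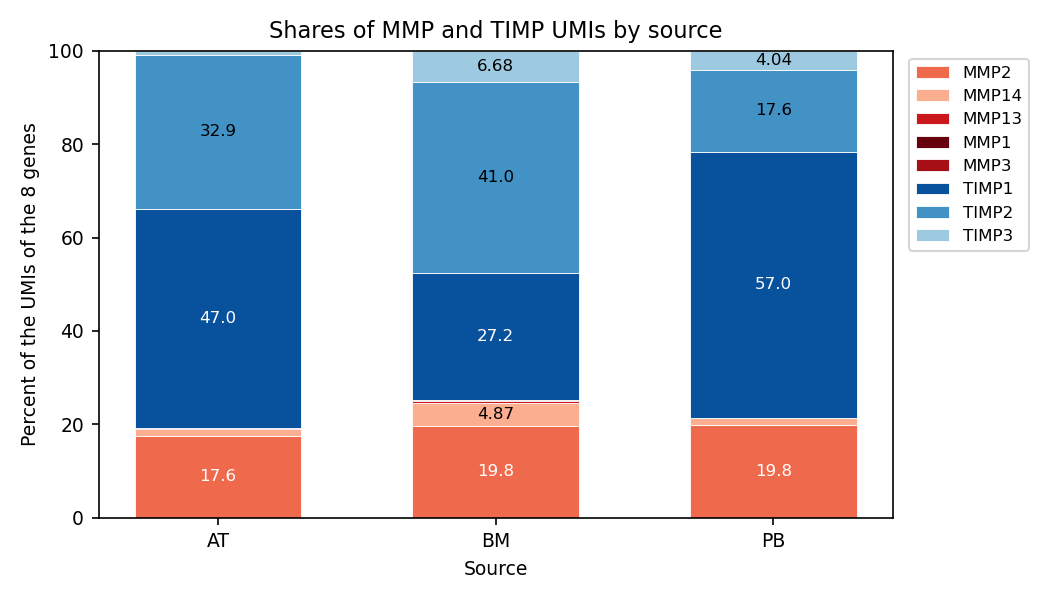
Share of each gene (percent) among the UMIs of the 8 genes in AT, BM and PB, summed over kept cells. *TIMP1* makes up 47.0% in AT, 27.2% in BM and 57.0% in PB, *TIMP2* 32.9%, 41.0% and 17.6%, and *MMP2* 17.6%, 19.8% and 19.8%.

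Protease and inhibitor pairs whose products are known to act on each other gave ratios that differed more than the sum did in most comparisons. This was not so for *MMP2* over *TIMP2* between BM and AT. *MMP2* over *TIMP2* was 0.536 (0.524 to 0.549) in AT, 0.482 (0.473 to 0.492) in BM and 1.13 (1.10 to 1.15) in PB, 2.10-fold (2.03 to 2.17) higher in PB than in AT. *MMP14* over *TIMP2* was 0.0430 in AT, 0.119 in BM and 0.0896 in PB, 2.77-fold (2.57 to 2.98) higher in BM than in AT. *MMP1*, *MMP3* and *MMP13* together over *TIMP1* gave 0.00463 (0.00390 to 0.00547) in AT, 0.0182 (0.0164 to 0.0202) in BM and 4.73e-05 (5.72e-06 to 1.71e-04) in PB. These rested on 141, 366 and 2 protease UMIs. In AT 3 cells held 80.4% of the *MMP3* UMIs, and in BM 3 cells held 47.0% of the *MMP13* UMIs, so the limits are too narrow. The ratio of *TIMP1* to *TIMP2*, looked at after the levels had been seen, was 1.43 (1.41 to 1.46) in AT, 0.665 (0.653 to 0.677) in BM and 3.24 (3.18 to 3.31) in PB. At the level of cells, *TIMP1* exceeded *TIMP2* in 76.0% of PB cells, 46.3% of AT cells and 26.0% of BM cells.

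*MMP2*, *MMP14* and *TIMP2*, whose products form the activation complex at the cell surface, were all detected in 12.7% of AT cells, 37.1% of BM cells and 14.8% of PB cells, or in 2.44%, 10.9% and 2.07% of thinned cells. Detection of one of these genes carried little information on the others. *MMP2* and *MMP14* were detected together in 12.4% of thinned BM cells, where the product of their shares gives 11.2%, and the corresponding values were 3.13% and 2.69% in AT and 3.91% and 3.72% in PB. *MMP2* and *TIMP2* were found together in 46.6% of thinned BM cells against a product of 45.0%. Over all pairs of *MMP2*, *MMP14* and the 3 TIMPs, the observed share was 0.913 to 1.16 times the product, and Spearman's rho across cells of 1 library lay between -0.05 and 0.15. These cells shared a library and had sparse counts.

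Within each source *TIMP1* was spread more unevenly over cells than *TIMP2*, also in BM, where its level was the lower of the pair. In cells thinned to 2500 UMIs, the variance over the mean of *TIMP1* UMIs was 3.68 in AT, 1.88 in BM and 2.99 in PB, whereas that of *TIMP2* was 1.15, 1.33 and 1.08 and that of *MMP2* 1.16, 1.42 and 1.18. The 5% of cells with the most *TIMP1* UMIs held 27.2%, 22.9% and 21.4% of them in AT, BM and PB, against 17.0%, 15.6% and 21.0% for *TIMP2*, so that this share hardly differed between the genes in PB. Before thinning, a single PB cell held 215 *TIMP1* UMIs, while the highest AT and BM cells held 105 and 77. At the same time *TIMP1* was at 0 in 9.53% of AT cells, where a Poisson count with the AT mean and each cell's own depth gives 1.60%, and in 4.85% of PB cells, where it gives 0.495%. For *TIMP2* the corresponding values in AT were 5.57% and 4.31%.

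*TIMP3* had a variance over the mean of 2.15 in BM, 1.95 in PB and 1.17 in AT, and the highest 5% of BM cells held 47.1% of its UMIs. For the same relative spread between cells this measure comes closer to 1 as the mean falls, so the AT value, at a mean of 0.0392 thinned UMIs against 0.310 in BM and 0.183 in PB, does not show that AT was more even. In BM, 61.7% of cells had no *TIMP3* UMI, where the Poisson count gives 43.2%. The same holds for *MMP14*, with values of 1.03, 1.13 and 1.03 in AT, BM and PB at means of 0.0572, 0.241 and 0.06995 thinned UMIs. *MMP13* in BM had a value of 16.8, which rested on 40 cells. Restricting the cells to those called G1 left 6 pairs of a gene and a source above 1.5, as many as in all cells.

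**Figure D3:**
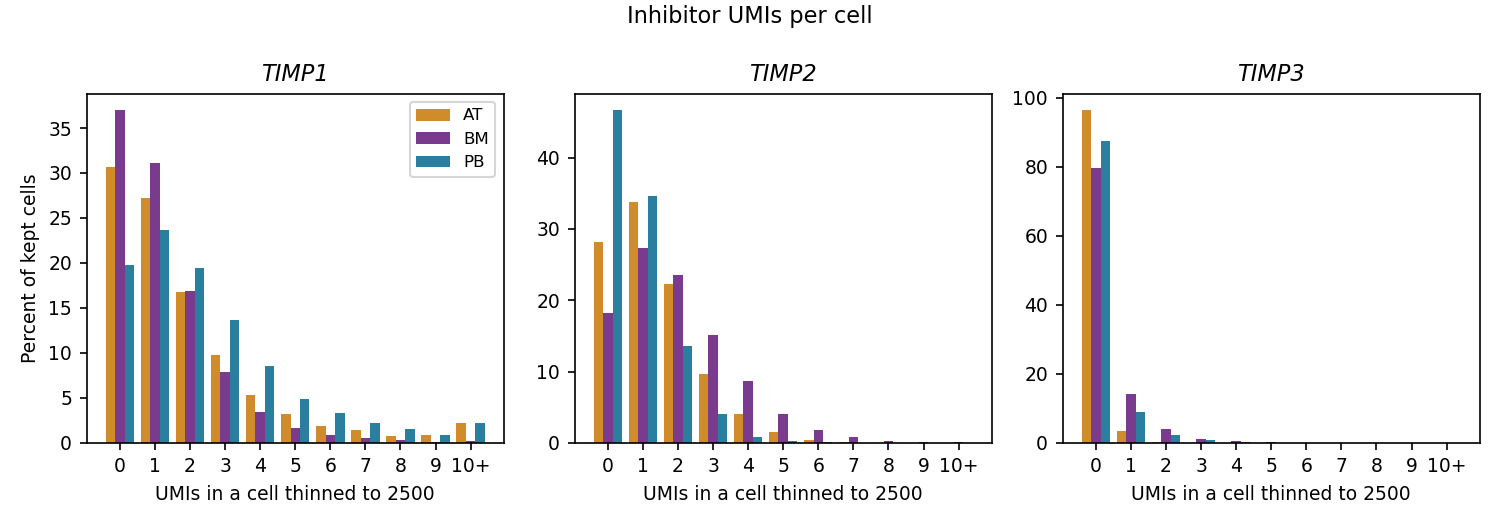
Percent of kept cells (vertical axis) with each number of *TIMP1*, *TIMP2* or *TIMP3* UMIs after each cell was thinned to 2500 UMIs, in AT, BM and PB. *TIMP1* has both many cells at 0 (30.6% in AT) and a tail of cells with 10 or more UMIs (2.18% in AT and in PB, 0.233% in BM), which *TIMP2* reaches in 0.108% of BM cells and in no AT or PB cell.

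Cells of each source were then clustered again with MMP and TIMP genes left out of the variable genes, which gave 7 AT, 7 BM and 10 PB clusters, and the members were described in them without a test. Clusters are named by source and number and by the genes that led them against the other cells of the source. In BM, 4 of the 5 more abundant members (*MMP2*, *MMP14* and the 3 TIMPs) peaked in the same cluster, although under 4 other clusterings *TIMP1* peaked in another cluster than *MMP2* and *TIMP2*. BM cluster 4 (534 cells), with *LENEP* and *CTSK* among its leading genes, the latter of which encodes the collagen-degrading cathepsin K, had the highest levels of *MMP2* (649 CPM), *MMP14* (179 CPM), *TIMP1* (801 CPM) and *TIMP2* (1076 CPM). The *TIMP1* level rested in large part on a few cells, since 91 cells that other clusterings set apart, 90 of them from this cluster, held 1297 *TIMP1* UMIs, against 2802 in the whole cluster. *MMP13* was also highest there, at 43.1 CPM, although 9 of its cells held all 151 UMIs.

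The opposite end was BM cluster 3 (652 cells), led by *CALCA*, *EMB* and *IGFBP5*, in which 89.9% of cells were called S or G2/M and the median was 9467.5 UMIs per cell. It had the lowest level of all 5 more abundant members, with *MMP2* at 170 CPM, *MMP14* at 38.2, *TIMP1* at 352, *TIMP2* at 431 and *TIMP3* at 18.8, so that clusters 4 and 3 were 3.81-fold apart for *MMP2* and 4.68-fold apart for *MMP14*. The same cluster held 12 of the 13 *MMP1* UMIs and 13 of the 15 *MMP3* UMIs of BM, in 11 of 12 and 11 of 12 cells. *MMP13* was distributed elsewhere, with 53.0% of its BM UMIs in cluster 1 (1376 cells, 24 of them positive), led by *C15H2orf40*, *PLEKHA5* and *DPT*, and 44.7% in cluster 4. BM cluster 1 and cluster 5 (469 cells, led by *CDC42EP3*, *SLC16A3* and *WFDC1*) had the highest *TIMP3* levels, 177 and 186 CPM.

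**Figure D4:**
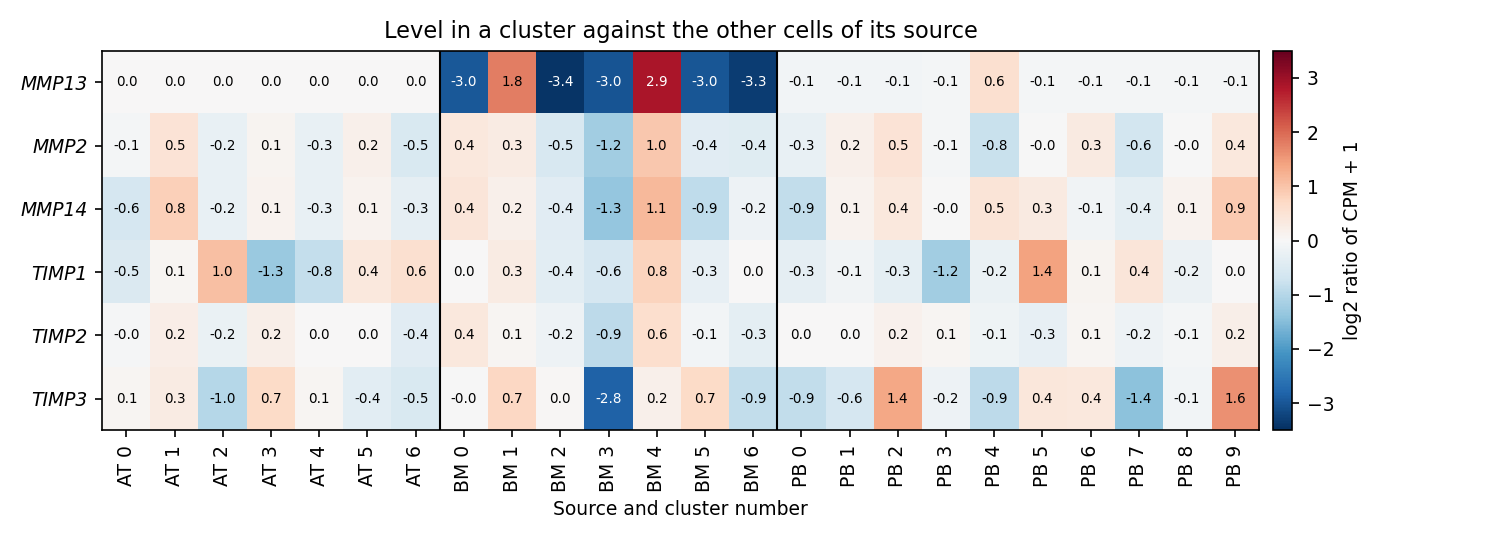
Log2 ratio of CPM + 1 of 6 genes (rows) between a cluster and the other cells of its source, for 24 clusters (columns) of AT, BM and PB. Red marks higher and blue lower levels, with BM cluster 4 high and BM cluster 3 low for *MMP2*, *MMP14* and *TIMP2*, and *TIMP1* high in AT cluster 2 and PB cluster 5. *MMP13* had 0 UMIs in AT and 2 in PB, so its ratios there carry no information.

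*TIMP1* had the widest range over clusters in AT and PB among the 5 more abundant members (3.997-fold and 5.43-fold), closely followed in PB by *TIMP3* (5.31-fold). Under 4 other clusterings the *TIMP1* range in AT was 2.93- to 4.79-fold, still the widest of the 5. In PB it was 2.89- to 5.34-fold, and *TIMP3* had the wider range in 3 of the 4 (3.84-, 5.53- and 5.74-fold). In AT it ranged from 340 CPM (326 to 355) in cluster 3 (845 cells, led by *SCARA5*, *SVEP1* and *PKIA*) to 1361 (1331 to 1391) in cluster 2 (866 cells, led by the mitotic genes *CDKN3*, *CDCA3* and *PRC1*). In PB it ranged from 444 CPM (414 to 476) in cluster 3 (433 cells), whose median of 3736 UMIs per cell was the lowest of the PB clusters, to 2411 (2358 to 2466) in cluster 5 (371 cells), led by *PIGK*, *LAMP2* and *PLTP*. In BM the clusters were 2.28-fold apart, but 4 other clusterings split off 91 to 100 cells with 1559 to 1608 CPM of *TIMP1* and put the clusters 4.42- to 4.56-fold apart. With a resolution of 0.4 that group had 91 cells, 90 of them from cluster 4, and had *LAMP2*, *PIGK*, *PCOLCE*, *EPHX1* and *ECM1* among its leading genes. These 5 genes also had their highest PB level in PB cluster 5, among the 9 PB clusters with at least 50 cells, *PIGK* at 284 CPM and *PCOLCE*, which encodes an enhancer of procollagen processing, at 707. PB cluster 8 came near it for *ECM1* (92.1 against 98.9 CPM) and had *EPHX1* at 50.2 against 74.4 CPM. The overlap of these 5 genes was looked for after the *TIMP1* levels had been seen, and of the other members *MMP14* (140 CPM) was also highest in that BM group at that resolution.

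*TIMP3* was among the 3 leading genes of PB cluster 2 (919 cells), beside *IFITM5* and *CH25H*, with 144 CPM (135 to 152) against 55.7 in the other PB cells, and that cluster also had the highest *MMP2* (460 CPM) and *TIMP2* (341 CPM) of the PB clusters with at least 50 cells. The 34 cells of PB cluster 9, led by the interferon-inducible genes *CXCL10*, *GBP5* and *GBP6*, had *TIMP3* at 217 CPM (163 to 284). That level rested on 53 UMIs in 11 cells, so its limits are too narrow. In AT, cluster 1 (995 cells, led by *SCARA5*, *CTSK* and *ITGBL1*) had the highest levels of *MMP2* (370 CPM), *MMP14* (36.2 CPM) and *TIMP2* (605 CPM) and held 62.7% of the *MMP3* UMIs in 4 cells. *TIMP2* was the most even inhibitor across clusters, whose highest over lowest level was 1.31 in PB, 1.46 in AT and 2.496 in BM, except that *TIMP1* had 2.28 in BM. The MMP to TIMP ratio of AT clusters ran from 0.147 to 0.343, that of BM clusters from 0.252 to 0.433 and that of PB clusters from 0.139 to 0.438. Each range was wider than that between the sources. A source pools its clusters and its ratio lies between theirs, so this comparison of ranges is a description only.

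Across the 23 clusters with at least 50 cells, with levels centred within each source, *MMP14*, *TIMP2* and *TIMP3* varied with *MMP2*, whereas *TIMP1* had low correlations with the others. Pearson's r of log2 levels was 0.86 for *MMP2* and *TIMP2*, 0.74 for *MMP2* and *MMP14* and 0.71 for *MMP2* and *TIMP3*, but 0.18 for *MMP2* and *TIMP1* and -0.06 for *TIMP1* and *TIMP2*. Clusters of a source shared a library and differed in depth and in their share of cycling cells, so these values are descriptions. Among 3512 named genes, the most similar were *UBXN6*, *TPP1* and *MRPL45* for *MMP2* (r = 0.91 to 0.92), *TPP1*, *HSPB6* and *VEGFB* for *TIMP2* (0.92 to 0.94), *ZNF503*, *CRIPT* and *CD276* for *MMP14* (0.80 to 0.85), *UBA1*, *PSMA2* and *CALR* for *TIMP1* (0.91 to 0.92), and *PCSK1N*, *NDRG1* and *MAP1LC3A* for *TIMP3* (0.85 to 0.86).

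The members also differed between cells called G1 and cells called G2/M. *MMP2* was lower in G2/M cells in all 3 sources, with G2/M over G1 levels of 0.746 (0.705 to 0.790) in AT, 0.467 (0.441 to 0.494) in BM and 0.773 (0.738 to 0.810) in PB. *TIMP2* and *TIMP3* were lower there as well, *TIMP2* at 0.851, 0.596 and 0.903 and *TIMP3* at 0.731, 0.468 and 0.616 of the G1 level in AT, BM and PB. *MMP14* was lower in G2/M cells of BM (0.582, 0.523 to 0.646), while the intervals in AT (0.764 to 1.12) and PB (0.770 to 1.06) included 1. *TIMP1* was 1.49-fold (1.44 to 1.53) higher in G2/M than in G1 cells of AT, at 950 against 639 CPM, 1.05-fold (1.03 to 1.08) higher in PB, and at 0.674 (0.645 to 0.703) of the G1 level in BM, at 376 against 558 CPM. The AT difference was not particular to G2/M, since cells called S had *TIMP1* at 930 CPM in AT. In BM and PB, S cells had it at 417 and 1047 CPM. Without the cells of BM cluster 3, an alternative added after seeing the data, the BM ratio of *TIMP1* was 0.722 (0.684 to 0.761) and that of *TIMP3* 0.727 (0.655 to 0.807).

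**Figure D5:**
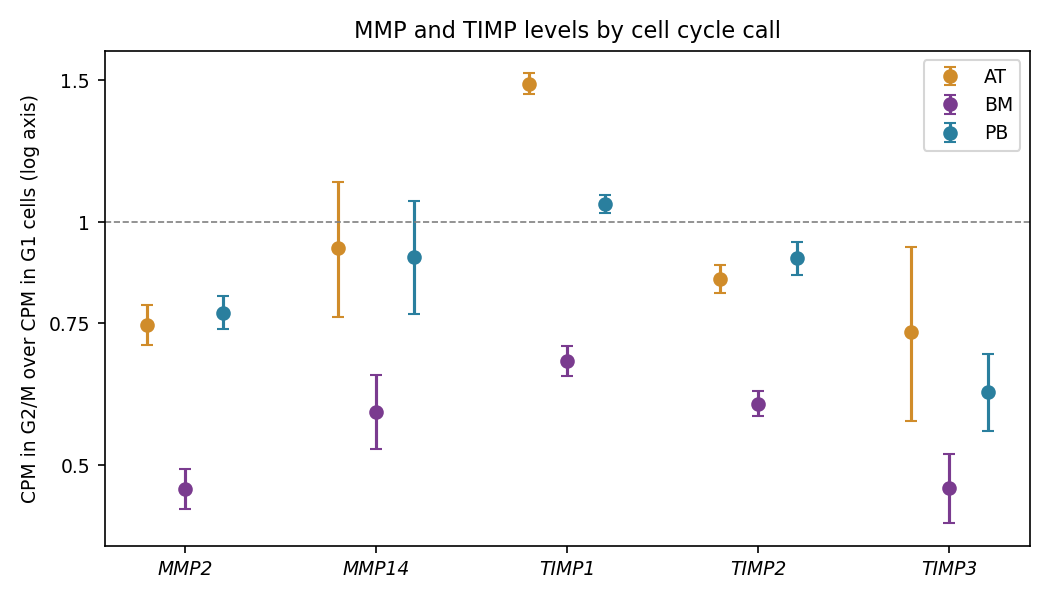
Level in cells called G2/M over the level in cells called G1 (log axis) for the 5 more abundant genes in AT, BM and PB. Bars are exact 95% intervals that cover counting error only, and the dashed line marks equal levels. *TIMP1* is above 1 in AT (1.49) and PB (1.05) and below 1 in BM (0.674).

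Of the 18 other genes of the family, 7 reached a mean of 1 CPM. Among these 7, 2 were higher and 1 was lower in BM than in AT by more than 1 on the log2 scale, 3 were higher and 1 lower in PB than in AT, and 1 was higher and 2 were lower in BM than in PB. *MMP25*, which is in these counts, reached the mean only through PB, where it was highest, and *MMP16* only through BM and PB. Over all 11479 genes, 8.45% were higher and 2.57% lower in BM than in AT, 5.98% and 4.42% in PB than in AT, and 5.94% and 2.33% in BM than in PB, and the counts of the lists that follow are to be read against these shares. *MMP23B* was an AT gene (35.4 CPM, against 3.93 in BM and 5.05 in PB), and *MMP9*, the second gelatinase, was highest in PB (18.2 CPM, against 2.68 in AT and 3.58 in BM). *MMP25*, a membrane-anchored protease, was at 10.3 CPM in PB, 1.12 in BM and 1 UMI in AT, and *MMP16*, another membrane-type gene, had 197 UMIs in BM and in PB (4.90 and 4.73 CPM) and 0 in AT. *MMP19* was highest in BM at 39.7 CPM (19.5 in AT, 15.4 in PB), *MMP11* lay between 12.4 and 18.6 CPM, and *MMP28* between 0.625 and 1.62. *MMP7*, *MMP20*, *MMP26* and *MMP27* had 0 UMIs in all 3 libraries. With all family genes counted, the MMP to TIMP ratio was 0.293 in AT, 0.388 in BM and 0.325 in PB.

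Genes that control or are cut by MMPs were read from 5 further lists. Of 7 other inhibitors and clearance receptors with a mean of at least 1 CPM, 3 were higher and 1 was lower in BM than in AT by more than 1 on the log2 scale (median log2 ratio 0.62, against 0.24 for all genes), 2 were higher and 2 lower in PB than in AT, and 1 was higher and 1 lower in BM than in PB. *SPOCK3* reached that mean only through BM and PB. It is among the 3 and the 2 higher than in AT, and is the 1 lower in BM than in PB. *THBS1* and *THBS2*, thrombospondins that bind MMPs, were at 520 and 496 CPM in AT, 386 and 149 in BM and 89.9995 and 107 in PB, and *TFPI2*, a serine protease inhibitor, was at 8.93, 25.6 and 34.8. Of 13 activators and surface partners, 1 was higher and 3 were lower in BM than in AT (median -0.34), 1 and 3 in PB than in AT (median -0.23), and 1 and 1 in BM than in PB. *PCSK6*, which is in both counts of 3 lower genes, reached the mean of 1 CPM only through AT. The 1 of 13 that was higher is close to the share of all genes. *PLAT*, a plasminogen activator, was at 41.4, 56.7 and 10.9 CPM in AT, BM and PB, *PLAUR*, the urokinase receptor, at 44.7, 101.2 and 110 CPM, and *SERPINF1* at 177, 72.6 and 302 CPM.

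Among 18 ADAM and ADAMTS genes, 5 were higher and 1 was lower in BM than in AT, 2 were higher and 4 lower in PB than in AT, and 6 were higher and 0 lower in BM than in PB (median 0.44, against 0.20 for all genes). *ADAM8* and *ADAMTS9*, which are in both counts of genes higher in BM, reached the mean of 1 CPM only through BM. *ADAMTS12*, which is among those lower in PB than in AT, reached it only through AT. *ADAMTS15*, lower in PB than in AT and among the 6 higher in BM than in PB, reached it only through AT and BM. *ADAMTS3*, a procollagen peptidase, was at 2.10, 10.9 and 5.93 CPM in AT, BM and PB, *ADAMTS6* at 11.9, 3.11 and 4.16, and *ADAMTS1* at 7.68, 13.1 and 4.49. Of 17 matrix genes, 2 were higher and 2 lower in BM than in AT (median -0.24), 3 and 2 in PB than in AT, and 3 and 4 in BM than in PB, with *COL6A3* at 29.7, 214 and 506 CPM, *COL4A1* at 16.7, 48.2 and 11.1, and *VCAN* at 115, 120 and 31.2 in AT, BM and PB. Of 19 transcription factors and inducers, 5 were higher and 0 lower in BM than in AT, 5 were higher and 1 lower in PB than in AT, and 2 were higher and 2 lower in BM than in PB. *RUNX2*, which is in both counts of 5 higher genes, reached the mean of 1 CPM only through BM and PB. *ETV4* and *ETV5*, ETS family factors, were at 2.10 and 4.40 CPM in AT, 7.78 and 21.0 in BM and 17.0 and 20.8 in PB, and *TGFB1* was at 19.7, 34.0 and 73.7 CPM.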

How the data were processed

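The data were single-cell 3′ libraries of cultured equine MSCs, 1 each from AT, BM and PB of 1 mare. The authors assigned reads to barcodes with Cell Ranger on EquCab3.0 and counted UMIs with ESAT, which adds reads just downstream of annotated genes and leaves out exons that overlap on opposite strands. The deposited values are raw counts of UMIs for each gene in each barcode, not normalized. Genes with a short or wrong 3′ end in the annotation can be undercounted, which affects comparisons between genes more than between sources.

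The limits on cells were 2500 and 15000 UMIs and a mitochondrial share of 3%. DoubletDetection, which the authors used, was not run here. Scrublet scores (Scanpy 1.11.5) served in an alternative only. Counts were summed per source, divided by the summed UMIs and compared as CPM, with log2 ratios after adding 1 CPM. Phases and clusters were rebuilt with Seurat 5.3.0 and sctransform 0.4.2 (3000 variable genes without MMP and TIMP genes, 14, 23 and 20 components, resolution 0.6). TMM factors came from edgeR 4.0.16. Shares of cells were also computed after thinning each cell to 2500 UMIs. Scripts ran in R 4.3.3 and Python 3.11.15. With 1 library per source, no test was made. A fold against 0 UMIs was computed against a fixed floor of 3 UMIs over the kept cells of that library. It is not a counting limit, and the exact lower limit is given beside it. No cell type that lacks these genes was present to measure free RNA. The interval and ratio code was tested on simulated data.

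The members and gene lists were chosen with earlier results of these data known. Named genes were the 8 members, of each other list the 3 genes with the largest log2 ratio among those with at least 10 CPM in a source, and other MMP or TIMP genes with at least 1 CPM. Leading genes had a UMI in at least 25% of a cluster's cells, and those without a symbol are not named. Some leading genes are not reported here. Genes named outside this rule were chosen after their values were seen: *SPP1*, *IFITM5*, *IBSP*, *SP7*, *ALPL*, *RUNX2* and the leading genes of the small BM group. Markers of cell types, *TIMP4* and the MMP genes at 0 UMIs are also named outside it. So are genes given only for how they reached the mean of 1 CPM.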

Additional observations from a re-analysis of the deposited data

Results flagged for a closer look

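*TIMP3* in the AT barcodes that the UMI limit left out stood apart from the AT cells. In the 6155 AT barcodes with under 2500 UMIs it was at 59.3 CPM, against 14.98 CPM in the kept AT cells. Of these barcodes 5711 were also in the PB matrix, and in them *TIMP3* was at 64.9 CPM (57.9 to 72.4), *TIMP1* at 1013 (985 to 1042) and *TIMP2* at 329 (313 to 345), where the kept PB cells had 72.1, 1016 and 314 CPM. In the other 444 AT barcodes *TIMP3* was at 14.7 CPM (6.74 to 28.0), *TIMP1* at 458 and *TIMP2* at 585. *MMP25*, with 1 UMI in the kept AT cells, had 49 UMIs (9.96 CPM) in the shared AT barcodes, against 10.3 CPM in PB. All kept PB barcodes were in the matrix of another library, and 76 kept AT, 77 kept BM and 72 kept PB barcodes were kept in more than 1.

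*TIMP1* had opposite directions between cell cycle calls in different sources. The G2/M over G1 ratio was 1.49 in AT and 1.05 in PB but 0.674 in BM. With 1 library per source this difference was not tested, and the intervals of these ratios cover counting error only, although *TIMP1* UMIs varied between cells by more than a Poisson count.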

How the results depend on the processing

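No paired analysis was possible because each source had 1 library, and for the same reason no replicate could be left out. Of 125 values of the 11 log2 ratios over 1 in size, 112 stayed above 1, 13 were 1 or less and 0 reversed. With a pseudocount of 25 CPM the number of members over 1 was 2 for BM against AT, 1 for PB against AT and 2 for BM against PB. The MMP to TIMP ratio in AT, BM and PB was 0.273, 0.356 and 0.293 in G1 cells, 0.293, 0.388 and 0.325 with all family genes, 0.570, 0.527 and 0.989 without *TIMP1*, 0.0202, 0.0717 and 0.0201 without *MMP2*, and 0.231, 0.300 and 0.286 in the median cell. It was 0.349 in BM and 0.278 in PB with thinned cells. Among the pairs of a gene and a source with a thinned value, which leave out *MMP1* and *MMP3*, variance over mean exceeded 1.5 for 12 with counts as deposited, against 6 with thinned cells. Leaving out barcodes found in another matrix left no PB cell, so it was run for BM against AT only. Leaving out barcodes kept in more than 1 library, and the 3 highest cells of a gene, were chosen after seeing the data. Apart from the alternatives that change which genes or cells are counted, the causes of these shifts were not tested. At 0 UMIs in a library, a level of 3 UMIs (0.0721 to 0.0750 CPM) could have gone uncounted. The exact upper limits at 0 UMIs were 0.0886 to 0.0923 CPM.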
